A study of Mus musculus with 21 samples.

Results

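The p53 and senescence genes described here are 10 mouse genes picked by name, with no measured value in the rule: Trp53, Cdkn1a, Cdkn2a, Cdkn2b, Mdm2, Ccng1, Bax, Phlda3, Eda2r and Glb1l2. Each was found by its Ensembl ID among the 52636 gene IDs of the count table, and its counts were read in all 21 libraries. The libraries were made from total RNA of livers of wild-type mice. The labels place 5 livers in a group that ate normal chow for 8 weeks, which they call week 0, 8 livers in a group fed CDA-HFD for 8 weeks, and 8 in a group fed CDA-HFD for 16 weeks. CDA-HFD is a choline-deficient, amino acid-defined, high-fat diet used to bring on fatty liver, inflammation and fibrosis in mice. No chow group stands beside the 16-week livers, so time on the diet and age cannot be told apart, and the labels give neither sex, age nor batch. Nothing in the labels states outright that each library is a separate mouse, so the p-values measure the spread between libraries.

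The p53 protein, encoded by Trp53, is a transcription factor that damaged or stressed cells stabilise. It switches on genes that stop the cell cycle (Cdkn1a), remove damaged cells (Bax, Eda2r), restrain growth signals (Phlda3) and feed back on p53 itself (Mdm2, Ccng1). Senescent cells stay alive but no longer divide, and Cdkn2a, Cdkn2b and Cdkn1a, all inhibitors of cyclin-dependent kinases, are the genes most often used to follow them. In injured liver such cells have been described among hepatocytes, bile duct cells and stellate cells.

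Library totals ran over 33522456 to 42586342 counts in chow livers, 29037525 to 45868842 at 8 weeks of CDA-HFD and 35254088 to 48901145 at 16 weeks. The labelled tissue matched its defining genes: 8 hepatocyte genes, Alb and Apoa1 among them, summed to between 74858 and 344205 CPM (counts scaled to library size) in the 21 libraries. Library 3 of the 8-week group stood apart. Its mitochondrial transcripts took 0.250% of the counts, against 2.22% to 3.18% in the other 7 libraries of its group. That share also separated diet from chow, at 4.23% to 5.34% in chow livers and 2.37% to 3.15% at 16 weeks, with no overlap with chow at either time, and its part in the members' values was not tested. Library 3 held the highest sums of squamous epithelium genes (1498 CPM) and skeletal muscle genes (3219 CPM) of any library. Chow library 5 held 409 CPM of skeletal muscle genes, against 0.724 to 14.2 CPM in the other chow livers. High sums of these genes also stood in CDA-HFD livers, in 8-week library 6 (353 CPM) and in 16-week libraries 1, 4 and 7 (419, 407 and 239 CPM). Where leaving out 8-week library 3 or chow library 5 changed a call or moved a value of a member by much, the value or the group mean without it is given too.

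The start regions of the members show how far each gene carries a p53 response element near its start site. RefSeq start regions of 300 bases (250 before the start and 50 after it, build GRCm38.p6) were at hand for 9 members, in 11 windows. Each was searched on both strands for the p53 response element consensus, 20 bases made of 2 decamers with no spacer, with the C and the G of each decamer's core required and other mismatches counted. The windows of 3 genes are shown because Cdkn1a and Phlda3 followed each other from liver to liver and because Ccng1, which gave no such relation past the threshold, has as close a match as Cdkn1a. The windows are chr17:29090729-29091028 on the plus strand for Cdkn1a, chr11:40755237-40755536 on the minus strand for Ccng1 and chr1:135765835-135766134 on the plus strand for Phlda3, each printed 5′ to 3′ along its gene with the closest match in capitals.
Cdkn1a: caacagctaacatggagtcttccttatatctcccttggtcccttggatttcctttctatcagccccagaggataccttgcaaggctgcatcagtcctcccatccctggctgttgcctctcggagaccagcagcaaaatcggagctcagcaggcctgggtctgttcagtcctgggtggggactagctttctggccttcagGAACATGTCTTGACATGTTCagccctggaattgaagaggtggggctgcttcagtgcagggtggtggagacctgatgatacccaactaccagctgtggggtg
Ccng1: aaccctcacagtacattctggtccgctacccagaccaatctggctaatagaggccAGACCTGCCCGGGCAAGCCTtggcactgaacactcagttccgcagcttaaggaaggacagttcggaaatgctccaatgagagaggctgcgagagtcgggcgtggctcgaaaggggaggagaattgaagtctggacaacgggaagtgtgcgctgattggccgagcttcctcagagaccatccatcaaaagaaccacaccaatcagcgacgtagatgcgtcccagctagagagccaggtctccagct
Phlda3: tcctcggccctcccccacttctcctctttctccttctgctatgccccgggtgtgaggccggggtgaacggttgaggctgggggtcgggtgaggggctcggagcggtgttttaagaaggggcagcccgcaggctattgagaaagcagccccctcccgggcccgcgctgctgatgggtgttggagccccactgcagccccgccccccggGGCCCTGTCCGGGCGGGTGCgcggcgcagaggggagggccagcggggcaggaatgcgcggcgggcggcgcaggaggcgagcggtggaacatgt

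The match in the Cdkn1a window, GAACATGTCTTGACATGTTC, departs from the consensus at 1 base, and so does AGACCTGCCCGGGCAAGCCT in the Ccng1 window. Of the 32851 RefSeq windows searched, 22 (0.067%) hold a match with at most 1 mismatch. The Trp53 window, chr11:69580109-69580408 on the plus strand, holds GGACTTGCCCTTACTTGTTA with 3 mismatches, which 1.38% of all windows match or better. The closest match in the Phlda3 window has 5 mismatches, a closeness that 12.4% of windows reach. The letters ACATGT, which also stand in the capitals of Cdkn1a, end that window and occur in 5.28% of all windows. An element that starts near the end of a window and runs past it could not be scored, so the Phlda3 value covers only matches wholly inside. The windows of Bax, Mdm2, Cdkn2a and Eda2r and the downstream start of Cdkn1a gave no match with fewer than 7 mismatches, and Cdkn2b had none with both cores intact. A match is a run of letters and not a measured binding site, and elements that lie elsewhere, such as in a first intron, were not searched.

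Of the 10 genes, 4 were called higher after 8 weeks of CDA-HFD than on chow and 7 after 16 weeks, and none was called lower in either comparison (edgeR quasi-likelihood test, Benjamini-Hochberg adjusted p under 0.05 over 17104 genes). The genes called at both times were Trp53, Cdkn2a, Bax and Phlda3, and Cdkn1a, Cdkn2b and Eda2r passed at 16 weeks and not at 8, though none of these 3 was called between the 2 times. Mdm2, Ccng1 and Glb1l2 were called at neither time. The diet moved much of the transcriptome: 51.3% of all genes tested were called at 8 weeks (30.8% higher and 20.5% lower) and 51.9% at 16 weeks (29.4% higher and 22.5% lower). The median log2 change of the 10 genes was 0.64 at 8 weeks and 0.80 at 16 weeks, against medians of 0.16 and 0.03 over all genes. The 2 comparisons share the chow livers. With counts scaled by library totals alone, the median over all genes was 0.28 at 8 weeks and 0.56 at 16 weeks. That scaling made 78.3% of all calls at 8 weeks and 89.5% at 16 weeks higher ones, where the TMM scaling used throughout made 60.1% and 56.6% of them higher.

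**Figure D1:**
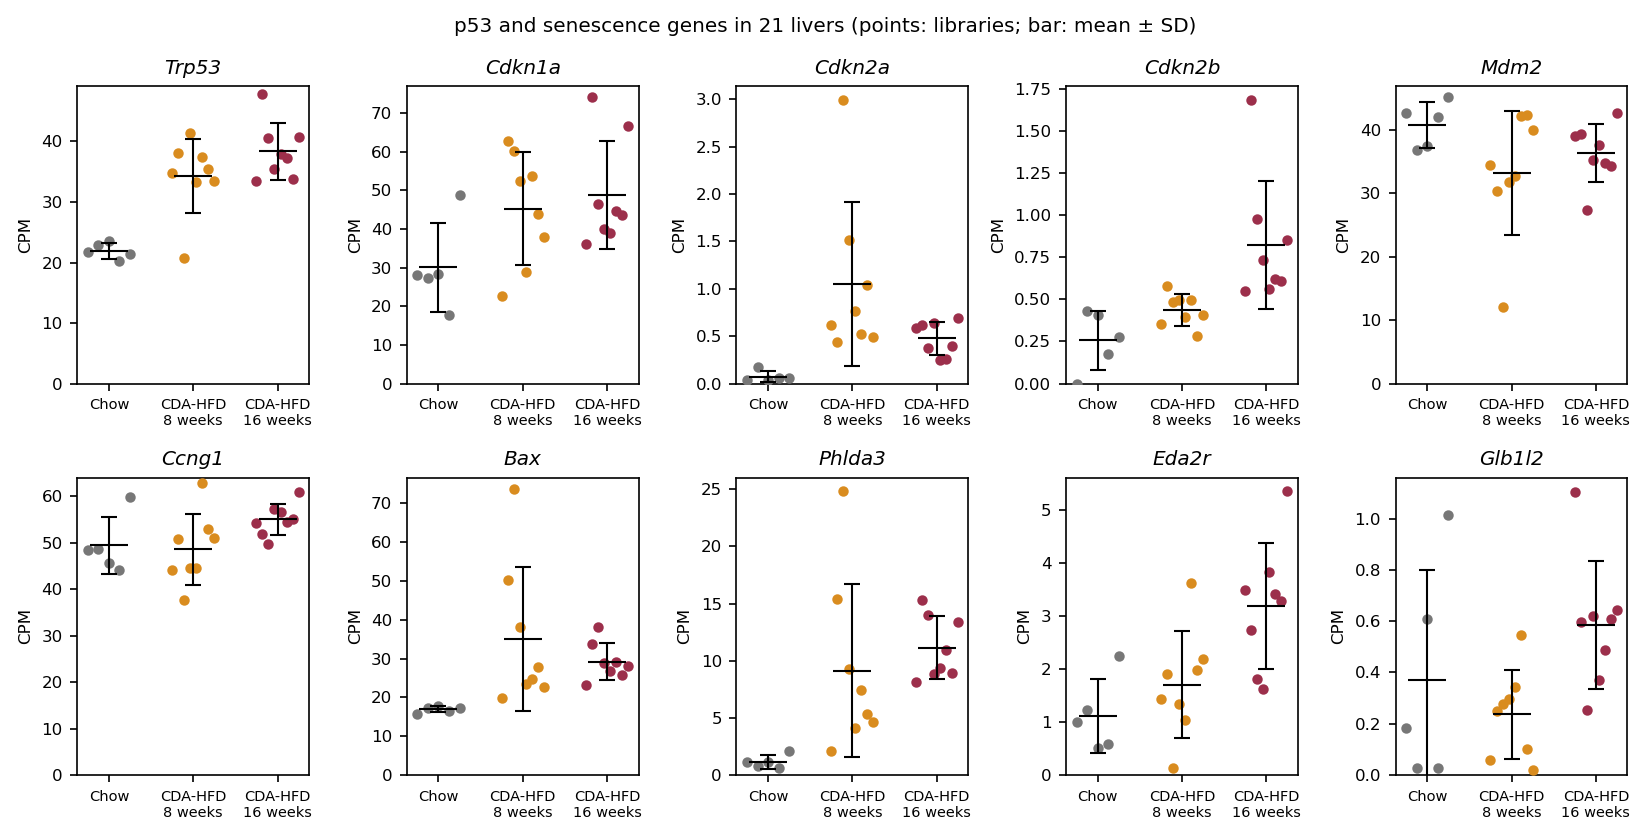
CPM (TMM-scaled) of the 10 genes in every library, with chow, 8 weeks and 16 weeks of CDA-HFD from left to right, points for libraries and bars for the mean ± SD. Trp53, Cdkn2a, Cdkn2b, Bax and Phlda3 at 16 weeks lie wholly above chow, while Mdm2 and Ccng1 overlap it.

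Trp53 itself (chr11:69580359-69591873, plus strand, GRCm38) was among the steadiest of the responses. Its chow libraries read 21.7, 22.9, 23.6, 20.2 and 21.4 CPM, the 8-week libraries ran from 20.8 over a median of 35.1 to 41.3 CPM, and the 16-week libraries from 33.5 over 37.6 to 47.8 CPM. All 16-week livers were above all chow livers, and at 8 weeks library 3 alone fell into the chow range, the other 7 reading 33.3 to 41.3 CPM. Trp53 transcripts rose by 0.65 on the log2 scale at 8 weeks (SE 0.13, edgeR adjusted p = 0.000427) and by 0.80 at 16 weeks (SE 0.13, edgeR adjusted p = 2.82e-05), each against chow. The 16-week and 8-week groups differed by 0.16 (SE 0.11, edgeR adjusted p = 0.316), which did not pass the threshold. Chow livers agreed closely on this gene, with a coefficient of variation of 5.998%.

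Cdkn1a (chr17:29090976-29100727, plus strand) encodes p21, the CDK inhibitor through which p53 arrests the cell cycle, and it varied widely between livers of 1 group. Its coefficient of variation was 28.5% at 16 weeks and 37.9% on chow, above those of Trp53, Bax, Mdm2 and Ccng1, and 32.1% at 8 weeks, where Bax had 52.9%. Members with fewer counts varied more. On chow Phlda3, Eda2r, Cdkn2b, Cdkn2a and Glb1l2 had 51.9% to 115%. At 16 weeks Eda2r, Cdkn2a, Glb1l2 and Cdkn2b had 37.1% to 45.9%, and at 8 weeks Eda2r, Glb1l2, Cdkn2a and Phlda3 had 59.0% to 82.5%. Its chow libraries read 28.1, 27.3, 28.3, 17.7 and 48.8 CPM. At 8 weeks it ran from 22.6 over 48.1 to 62.7 CPM, and at 16 weeks from 36.1 over 44.1 to 74.2 CPM. Both CDA-HFD groups overlapped chow, and at 16 weeks they did so only through chow library 5, since the other 4 chow livers were at 28.3 CPM or lower. Cdkn1a rose by 0.70 at 16 weeks (SE 0.26, edgeR adjusted p = 0.0283). At 8 weeks the log2 change was 0.59 (SE 0.26, edgeR adjusted p = 0.0612), past the threshold without chow library 5 (0.83, edgeR adjusted p = 0.0139) and also without 8-week library 1 (0.69, edgeR adjusted p = 0.0220) or 8-week library 5 (0.66, edgeR adjusted p = 0.0381). The 16-week call was lost when any of chow libraries 1 to 4 or 16-week library 2 or 8 was left out, with edgeR adjusted p between 0.0547 and 0.0926. Its exons share 273 bases with an annotated gene on the opposite strand that has no row in the count table, and whether the counting used strand is not given in the sources used here.

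Cdkn2a (chr4:89274471-89294653, minus strand) carries 2 start sites whose transcripts make different proteins, the CDK inhibitor p16INK4a and the p53-stabilising p19ARF, and the counts per gene cannot separate them. It was scarce: the chow libraries held 1, 6, 1, 2 and 2 counts, or 0.0368, 0.172, 0.0337, 0.0579 and 0.0548 CPM. The 8-week libraries ran from 0.443 over 0.694 to 2.99 CPM and the 16-week libraries from 0.247 over 0.491 to 0.692 CPM, all above every chow library. Cdkn2a transcripts rose by 3.74 at 8 weeks (SE 0.57, edgeR adjusted p = 2.13e-05) and by 2.66 at 16 weeks (SE 0.56, edgeR adjusted p = 0.000451). The 8-week mean was 1.05 CPM with library 3 and 0.771 CPM without it, and over the alternative settings the 8-week change ran from 3.03 to 4.36. No chow library reached the level of 0.241 CPM on which the filter on low counts works, so the gene entered the test through the CDA-HFD livers, and both folds rest on 12 counts in chow.

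Cdkn2a was the single member called between the diet times, lower at 16 than at 8 weeks by a log2 change of -1.08 (SE 0.38, edgeR adjusted p = 0.0474). The 8-week libraries 3, 4 and 7 read highest, at 2.99, 1.51 and 1.04 CPM, and the other 5 read 0.443 to 0.769 CPM. The call held in 8 of 30 alternative settings. Without library 3 the change was -0.67 (edgeR adjusted p = 0.106), and without libraries 3, 4 and 5 together it was -0.37 (edgeR adjusted p = 0.453). Libraries 4 and 5 held the most exocrine pancreas transcripts, at 8625 and 404 CPM, and library 3 the most squamous and muscle transcripts. Their part in the Cdkn2a values was not tested.

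Cdkn2b (chr4:89306299-89311039, minus strand), which lies next to Cdkn2a and encodes the CDK4 and CDK6 inhibitor p15INK4b, was as scarce. The chow libraries read 0, 0.430, 0.405, 0.174 and 0.274 CPM, the 8-week libraries ran from 0.279 over 0.447 to 0.581 CPM and the 16-week libraries from 0.551 over 0.674 to 1.68 CPM. The 16-week livers lay above all chow livers and the 8-week livers overlapped them. Cdkn2b rose by 1.65 at 16 weeks (SE 0.43, edgeR adjusted p = 0.00293), and its log2 change at 8 weeks was 0.74 (SE 0.44, edgeR adjusted p = 0.158). Between 16 and 8 weeks it was 0.92 (SE 0.35, edgeR adjusted p = 0.0643), past the threshold in 6 of 30 alternative settings, among them without 8-week library 3 (0.95, edgeR adjusted p = 0.0498). The difference between the 2 neighbouring genes was not itself tested.

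**Figure D2:**
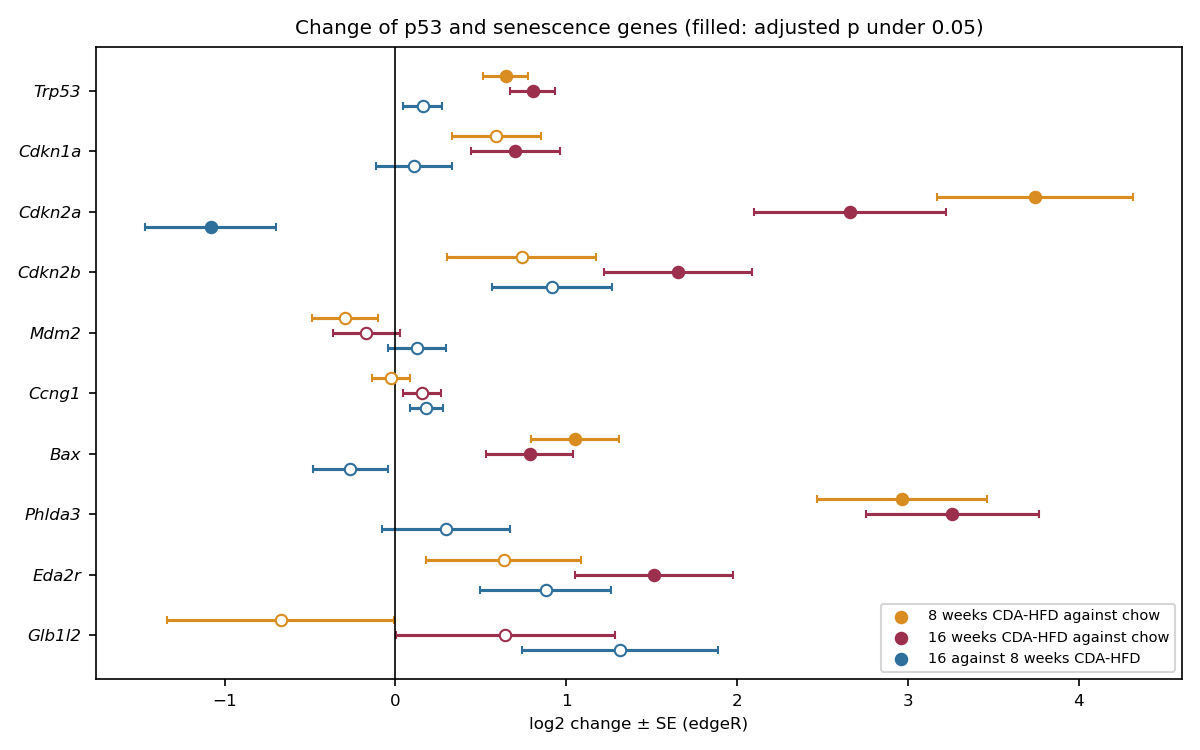
log2 change ± SE (edgeR) of each gene for 8 weeks of CDA-HFD against chow, 16 weeks against chow, and 16 against 8 weeks; filled points have an adjusted p under 0.05. Phlda3 and Cdkn2a lie farthest to the right against chow, Mdm2 and Ccng1 close to 0, and Cdkn2a has the single filled point for 16 against 8 weeks.

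Phlda3 and Bax, which act downstream of p53, were called at both times. Phlda3 (chr1:135766119-135769136, plus strand) encodes a pleckstrin-homology protein that keeps the survival kinase Akt off the membrane. Its chow libraries read 1.14, 0.774, 1.15, 0.579 and 2.14 CPM, against 2.12 over 6.37 to 24.8 CPM at 8 weeks and 8.11 over 10.2 to 15.3 CPM at 16 weeks. All 16-week livers were above all chow livers, and at 8 weeks only library 1 (2.12 CPM) lay below the highest chow liver, library 5. Phlda3 transcripts rose by 2.96 at 8 weeks (SE 0.50, edgeR adjusted p = 6.44e-05), a 7.81-fold higher level than on chow, and by 3.26 at 16 weeks (SE 0.50, edgeR adjusted p = 1.49e-05), or 9.58-fold. Without 8-week library 3 the 8-week change was 2.56 (edgeR adjusted p = 2.69e-05). The 16-week and 8-week groups differed by 0.30 (SE 0.37, edgeR adjusted p = 0.599).

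Bax (chr7:45461697-45466898, minus strand) encodes a BCL2 family protein that opens the outer mitochondrial membrane in apoptosis. Chow livers agreed within a coefficient of variation of 4.68%, at 15.8, 17.3, 17.7, 16.5 and 17.4 CPM. The 8-week libraries ran from 19.9 over 26.3 to 73.8 CPM and the 16-week libraries from 23.2 over 28.5 to 38.1 CPM, with no CDA-HFD liver down in the chow range. Bax rose by 1.05 at 8 weeks (SE 0.26, edgeR adjusted p = 0.00219) and by 0.79 at 16 weeks (SE 0.25, edgeR adjusted p = 0.0130). Without 8-week library 3, the highest, the 8-week change was 0.80 (edgeR adjusted p = 0.00129), about the size of the 16-week one. Groups without overlap and higher than chow were seen for 2 of the 10 genes at 8 weeks (Cdkn2a and Bax) and for 5 at 16 weeks (these and Trp53, Cdkn2b and Phlda3), where 15.3% and 27.2% of all genes tested were so. No member lay wholly below chow at either time, against 14.8% of all genes at 8 weeks and 23.3% at 16 weeks.

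Eda2r (chrX:97333840-97377216, minus strand) encodes the receptor of the A2 form of ectodysplasin, a TNF receptor family member that p53 activates. It read 0.993, 1.23, 0.506, 0.579 and 2.25 CPM on chow, 0.139 over 1.68 to 3.62 CPM at 8 weeks and 1.62 over 3.34 to 5.36 CPM at 16 weeks. The 16-week livers overlapped chow through chow library 5 alone. Eda2r rose by 1.51 at 16 weeks (SE 0.46, edgeR adjusted p = 0.00904), and its log2 change at 8 weeks was 0.63 (SE 0.45, edgeR adjusted p = 0.243). With 8-week library 3, which held 2 counts, and chow library 5 left out together, the 8-week change was 1.21 (edgeR adjusted p = 0.00887). This pair was chosen after seeing the data. It holds the lowest 8-week and the highest chow reading of Eda2r, so leaving it out raises the change by construction. The 8-week change passed in 3 of 31 alternative settings. The difference of 16-week minus 8-week livers was 0.88 (SE 0.38, edgeR adjusted p = 0.0974).

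The genes that feed back on p53 did not pass the threshold. Mdm2 (chr10:117688875-117710758, minus strand), the ubiquitin ligase that marks p53 for breakdown and is itself a p53 target, read 42.7, 36.8, 37.5, 42.0 and 45.3 CPM on chow, 12.03 over 33.6 to 42.3 CPM at 8 weeks and 27.4 over 36.4 to 42.7 CPM at 16 weeks. Its log2 changes were -0.30 at 8 weeks (SE 0.19, edgeR adjusted p = 0.203) and -0.17 at 16 weeks (SE 0.19, edgeR adjusted p = 0.493). Scaled by library totals alone, the 16-week value was 0.36 (edgeR adjusted p = 0.291), of the opposite sign. The lowest 8-week reading came from library 3, and the 8-week mean was 33.2 CPM with that library and 36.3 CPM without it.

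Ccng1 (chr11:40748552-40755311, minus strand) encodes cyclin G1, which brings a phosphatase to Mdm2. It read 48.5, 48.6, 45.7, 44.1 and 59.9 CPM on chow, 37.7 over 47.7 to 62.7 CPM at 8 weeks and 49.7 over 54.8 to 60.8 CPM at 16 weeks. The log2 changes were -0.03 at 8 weeks (SE 0.11, edgeR adjusted p = 0.860) and 0.16 at 16 weeks (SE 0.11, edgeR adjusted p = 0.252). At 16 weeks the change passed in 3 of 31 alternative settings. It did so with library totals alone as the scaling (0.68, edgeR adjusted p = 0.00780) and in limma voom with sample weights (0.17, adjusted p = 0.0342). It also passed with 8-week library 3 and chow library 5 left out together (0.23, edgeR adjusted p = 0.0256). That pair was chosen after seeing the data, and chow library 5 was the highest chow liver for Ccng1.

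Glb1l2 (chr9:26763044-26806468, minus strand) codes for a relative of the lysosomal beta-galactosidase, whose activity is the usual stain for senescent cells. It was close to the limit of what these libraries can measure, at 0.184, 0.0287, 0.607, 0.0290 and 1.01 CPM on chow, 0.0215 over 0.264 to 0.545 CPM at 8 weeks and 0.256 over 0.602 to 1.10 CPM at 16 weeks. The log2 changes were -0.67 at 8 weeks (SE 0.67, edgeR adjusted p = 0.404) and 0.64 at 16 weeks (SE 0.64, edgeR adjusted p = 0.425), with chow values of 1 to 37 counts. Without chow library 5 the 8-week value turned to 0.17 (edgeR adjusted p = 0.851). Of its relatives, Glb1l rose by 0.67 at 8 weeks (SE 0.14, edgeR adjusted p = 0.000593) and by 0.99 at 16 weeks (SE 0.14, edgeR adjusted p = 5.88e-06), while Glb1, which encodes the enzyme that is stained, read 0.47 and 0.41 and passed at neither time. Without 8-week library 3, which read 64.1 CPM of Glb1 and was the highest of its group, the Glb1 change was 0.20 at 8 weeks (edgeR adjusted p = 0.115) and 0.40 at 16 weeks (edgeR adjusted p = 0.00225), and with library totals as the scaling it passed at both times (0.50 and 0.94, edgeR adjusted p = 0.0118 and 2.43e-05).

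Between 16 and 8 weeks 1 of the 10 genes was called, Cdkn2a, and 4 had an unadjusted p under 0.05. Over all genes tested, 21.6% were called in this comparison, 10.6% higher and 11% lower. No member had all its 16-week libraries above or below all its 8-week libraries, which 2.58% of all genes did upward and 0.509% downward. The count of members called ran from 0 to 4 over the alternative settings. With library totals as the scaling, 4 were called higher and none lower, with Cdkn2a at -0.54 (edgeR adjusted p = 0.192). That scaling moved the median over all genes to 0.38 in this comparison and made 94.8% of all calls higher ones.

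Set side by side per kilobase of exon, the levels ranked differently with diet. On chow Ccng1 led with 14.1 ± 1.76 CPM per kilobase, ahead of Bax (10.7 ± 0.502), Cdkn1a (8.45 ± 3.21), Mdm2 (8.04 ± 0.712) and Trp53 (5.43 ± 0.326; SD, n = 5 each). Cdkn1a and Mdm2 did not differ beyond their spread. After 16 weeks of CDA-HFD Bax led with 18.5 ± 2.99 CPM per kilobase, before Ccng1 (15.7 ± 0.962), Cdkn1a (13.7 ± 3.91), Trp53 (9.49 ± 1.16), Mdm2 (7.14 ± 0.900) and Phlda3 (7.13 ± 1.77; SD, n = 8 each). Bax, Ccng1 and Cdkn1a lay within each other's spread, and Phlda3, at 0.741 ± 0.385 CPM per kilobase on chow, stood level with Mdm2. At 8 weeks the order of the first 6 was the same as at 16 weeks, but Bax (22.3 ± 11.8) and Phlda3 (5.86 ± 4.83) varied so widely that they overlapped their neighbours. Cdkn2b, Eda2r, Cdkn2a and Glb1l2 stayed under 1 CPM per kilobase in all group means.

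Some livers were high or low for several members at once. Chow library 5 was the highest chow liver for 6 of the 10 genes (Cdkn1a, Mdm2, Ccng1, Phlda3, Eda2r and Glb1l2). At 16 weeks library 2 was the highest for 4 (Trp53, Cdkn1a, Cdkn2b and Phlda3), library 8 for another 4 (Cdkn2a, Mdm2, Ccng1 and Eda2r), and library 1 the lowest for 5. At 8 weeks library 3 was the highest for Cdkn2a, Bax and Phlda3 and the lowest for Trp53, Mdm2, Ccng1 and Eda2r.

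Within a diet group, Phlda3 followed Cdkn1a from liver to liver. Over the 8 libraries at 8 weeks, Pearson's r of log2 CPM was 0.91 (exact two-sided permutation p = 0.00119, adjusted over 18 relations p = 0.0145) and Spearman's rho 0.95 (exact permutation p = 0.00114, adjusted p = 0.0205). At 16 weeks r was 0.86 (exact permutation p = 0.00161, adjusted p = 0.0145) and rho 0.90 (exact permutation p = 0.00456, adjusted p = 0.0274). Leaving out the 2 livers farthest from the median of Cdkn1a gave r of 0.89 at 8 weeks and 0.82 at 16 weeks. In the alternative settings the 8-week r ran from 0.73, with library totals as the scaling (adjusted exact permutation p = 0.138), to 0.95, and the 16-week r from 0.79, without library 2 (adjusted exact permutation p = 0.107), to 0.97. The adjusted p passed in 8 and 7 of 10 settings.

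Of the other members, Trp53 had an r of 0.86 at 16 weeks (exact permutation p = 0.00367, adjusted p = 0.0220). Its rho of 0.83 did not pass (adjusted exact permutation p = 0.0554). The r fell to 0.57 without the 2 farthest livers and so rests on them. At 8 weeks the r of Trp53 was -0.12 (exact permutation p = 0.804, adjusted p = 0.905). The 8-week value turned on library 3: without it r was 0.71 (adjusted exact permutation p = 0.220), and with library totals as the scaling 0.50 (adjusted exact permutation p = 0.310). Cdkn2b had an r of 0.84 at 16 weeks (exact permutation p = 0.0113, adjusted p = 0.0508), with a rho of 0.90 (adjusted exact permutation p = 0.0274). That r fell to 0.64 without the 2 farthest livers, and also to 0.64 without library 2 alone (adjusted exact permutation p = 0.318). Bax had an r of 0.77 at 8 weeks (exact permutation p = 0.0245, adjusted p = 0.0883; rho 0.88, adjusted p = 0.0326). For Mdm2 r was -0.35 at 8 weeks and 0.35 at 16 weeks, for Ccng1 0.16 and 0.03 and for Eda2r -0.13 and 0.24, none of them past the threshold. Without library 3 the 8-week values were 0.000320 for Mdm2, 0.56 for Ccng1 and 0.52 for Eda2r, and with library totals as the scaling 0.38, 0.59 and 0.53, again with none past the threshold. Whether these relations differ from one another was not tested.

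**Figure D3:**
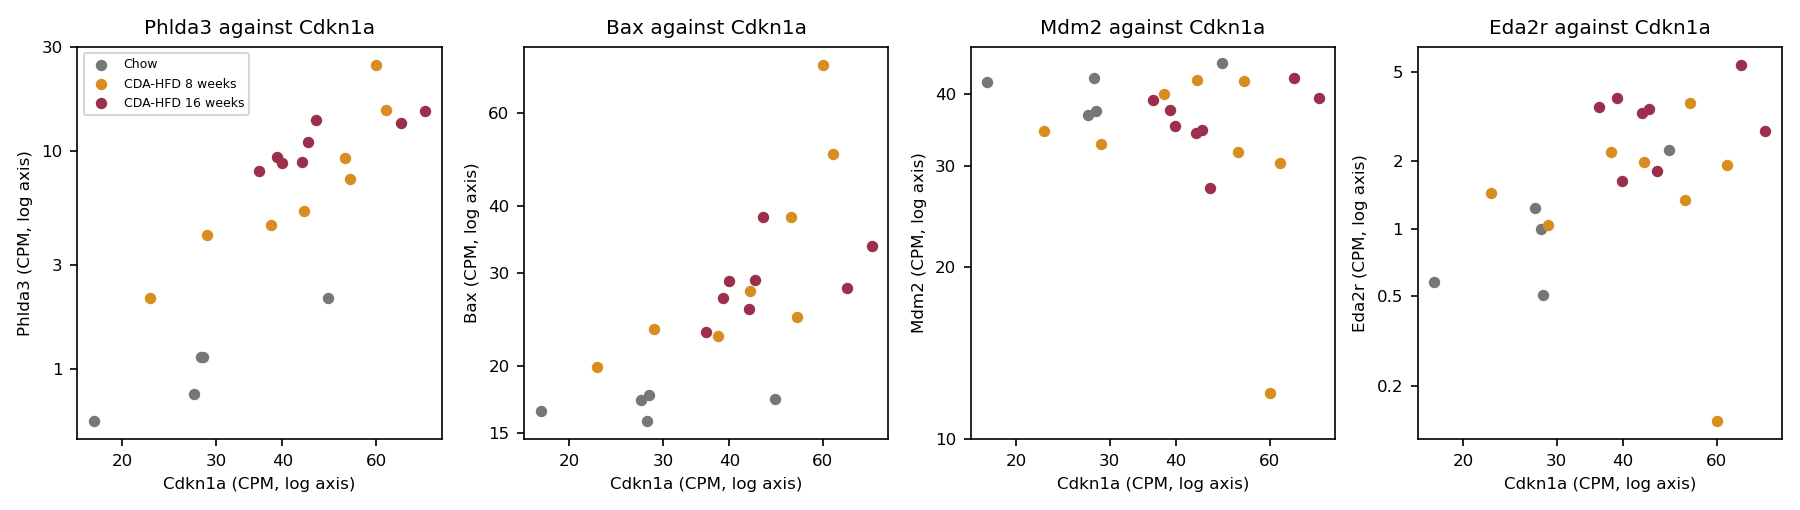
Cdkn1a (x axis, CPM, log axis) against Phlda3, Bax, Mdm2 and Eda2r (y axes, CPM, log axes) in every library, coloured by group. Phlda3 climbs with Cdkn1a inside each CDA-HFD group (r of 0.91 at 8 weeks and 0.86 at 16 weeks), while 8-week library 3 is the low point in the panels of Mdm2 and Eda2r, whose 8-week r was -0.35 and -0.13 with that library and 0.000320 and 0.52 without it.

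By deviation from the group means over the 21 libraries, the genes outside the 10 most like Cdkn1a were Htr2b (r = 0.90), a serotonin receptor, Vsir (r = 0.90), an immune checkpoint protein, and Ccdc80 (r = 0.89), a secreted matrix protein. Over the 20 libraries without 8-week library 3 they were Gpx3 (r = 0.95), a secreted glutathione peroxidase, Dbn1 (r = 0.95), an actin-binding protein, and Ctsk (r = 0.93), a lysosomal protease.

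In whole liver, more cells of a type and more RNA per cell cannot be told apart, and markers of several cell types moved with the same groups as the members. The sum of 8 macrophage genes had a median of 453 CPM on chow (range 421 to 564), 3108 CPM at 8 weeks (1738 to 7322) and 3736 CPM at 16 weeks (2844 to 4799), with 8 and 7 of the 8 genes called higher than chow. For stellate cells and fibroblasts the medians were 326 (238 to 372), 1361 (722 to 1799) and 2000 CPM (1544 to 2386), with 7 of 8 genes called higher at both times. Bile duct genes had medians of 88.1 (76.3 to 110.5), 235 (125 to 506) and 1067 CPM (490 to 1566), with 5 and 8 of 8 genes called higher. None of these lists had a gene without counts in any group. T and NK cell genes were called higher for 7 of 8 and lower for 1 of 8 at both times. B and plasma cell genes were called higher for 3 of 6 at 8 weeks and 6 of 6 at 16 weeks. Hepatocyte genes went the other way at 16 weeks, with 6 of 8 called lower and 0 higher. At 8 weeks 4 of 8 were called lower and 1 higher. Over all genes, 30.8% were called higher and 20.5% lower at 8 weeks, and 29.4% higher and 22.5% lower at 16 weeks. The median hepatocyte sum was 140492 CPM on chow, 138800 CPM at 8 weeks and 88564 CPM at 16 weeks.

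Transcripts of tissues outside the liver also differed between the groups. For scale, 30.8% of all genes were called higher at 8 weeks and 29.4% at 16 weeks, and 11% were lower at 16 than at 8 weeks. Squamous epithelium genes were called higher for 6 of 6 tested at 8 weeks and 5 of 6 at 16 weeks, with sums of 0.110 to 0.602 CPM on chow, where 7 of the 10 listed genes had no counts, 2.54 to 1498 CPM at 8 weeks and 6.20 to 234 CPM at 16 weeks. Exocrine pancreas genes were called higher for 8 of 8 at 8 weeks, and 8 of 8 were lower at 16 than at 8 weeks, with sums of 16.9 to 31.5 CPM on chow, 16.8 to 8625 CPM at 8 weeks and 11.8 to 16.6 CPM at 16 weeks.

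The same markers can be read in the livers at either end of the Cdkn1a range. At 16 weeks libraries 2 and 8, with 74.2 and 66.7 CPM of Cdkn1a, held the highest stellate cell sums (2155 and 2386 CPM). Library 2 also held the highest bile duct sum of that group (1566 CPM) and library 8 its highest macrophage sum (4799 CPM). At 8 weeks library 2, with the most Cdkn1a (62.7 CPM), held the highest bile duct sum (506 CPM) but not the highest stellate cell sum (1412 CPM, against 1799 CPM in library 6). Library 1, lowest in Cdkn1a, Bax and Phlda3, held the lowest macrophage, stellate cell and bile duct sums (1738, 722 and 125 CPM). Library 3, highest in Phlda3, held the highest macrophage sum (7322 CPM) and also the highest hepatocyte sum (344205 CPM). The part of cell makeup in the members' values was not tested.

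Of 37 other p53 target genes, all tested, 11 were called higher and 9 lower at 8 weeks (median log2 change 0.31), and 16 higher and 7 lower at 16 weeks (median 0.11). At 8 weeks these are shares of 29.7% higher and 24.3% lower, near the 30.8% and 20.5% over all genes. At 16 weeks they are 43.2% higher and 18.9% lower, where all genes gave 29.4% and 22.5%. The largest rise was that of Psrc1, a spindle protein, by 3.32 at 8 weeks (SE 0.56, edgeR adjusted p = 6.66e-05) and 3.81 at 16 weeks (SE 0.57, edgeR adjusted p = 8.98e-06). Both Psrc1 folds rest on 30 counts in chow, at a mean of 0.179 CPM. The largest falls were those of Trp53inp1, which promotes autophagy and p53 activity, with -1.29 at 8 weeks (SE 0.26, edgeR adjusted p = 0.000372), and of Plk3, a stress-response kinase, with -1.77 at 16 weeks (SE 0.43, edgeR adjusted p = 0.00159). Among the targets named after their values were seen, Gadd45a, a DNA damage and stress sensor, rose by 2.11 and 2.45, Pmaip1, which encodes the death protein Noxa, by 2.17 and 2.22, and Tnfrsf10b, a death receptor, by 1.91 and 2.81, at 8 and 16 weeks. Both Tnfrsf10b folds rest on 37 counts in chow, at a mean of 0.224 CPM. With library totals as the scaling, the 37 genes gave 11 higher and 4 lower calls at 8 weeks and 21 higher and 1 lower at 16 weeks.

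Of these targets, 4 were called higher and 3 lower at 16 than at 8 weeks. These are shares of 10.8% and 8.11%, near the 10.6% and 11% over all genes. Without 8-week library 3 there were 7 higher and 3 lower. With library totals as the scaling 14 were higher and 1 lower, where 94.8% of all calls in this comparison were higher. Ddit4l, an inhibitor of mTOR signalling, was higher by 1.82 (SE 0.30, edgeR adjusted p = 0.000312), at 15.1 CPM on average at 16 weeks and 4.30 CPM at 8 weeks, with no overlap between the groups. Dcxr, a carbonyl reductase of xylulose metabolism, was lower by a log2 change of -1.69 (SE 0.45, edgeR adjusted p = 0.0133). The 8-week library 3 read 678 CPM where its 7 neighbours read 40.4 to 104 CPM, and without it the change was -0.68 (SE 0.17, edgeR adjusted p = 0.00687).

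Genes that act on p53 protein were called about as often as genes in general, in 50% of cases at both times against 51.3% and 51.9% of all genes. Of 14 regulators and relatives tested, 2 were called higher and 5 lower at 8 weeks (median -0.25), and 3 higher and 4 lower at 16 weeks (median -0.18), though 6 higher and none lower at 16 weeks with library totals as the scaling. Chek2, a DNA damage checkpoint kinase, rose by 0.71 at 8 weeks (SE 0.14, edgeR adjusted p = 0.000270) and 0.98 at 16 weeks (SE 0.14, edgeR adjusted p = 4.20e-06). Atm, the kinase that answers DNA double-strand breaks, read -1.83 at 8 weeks (SE 0.42, edgeR adjusted p = 0.00121), with means of 4.76 CPM on CDA-HFD and 17.1 CPM on chow. Hipk2, which phosphorylates p53, read -1.55 at 16 weeks (SE 0.40, edgeR adjusted p = 0.00269).

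Of 5 other CDK inhibitors tested, 4 were called higher at both times and none lower (medians 1.38 and 1.83). That is 80% called higher, against 30.8% of all genes at 8 weeks and 29.4% at 16 weeks. Cdkn1b, which encodes p27, did not pass, with log2 changes of 0.03 at 8 weeks (edgeR adjusted p = 0.924) and 0.40 at 16 weeks (edgeR adjusted p = 0.172). Cdkn3, a phosphatase whose transcript accumulates in dividing cells, showed the largest rise, by 4.63 at 8 weeks (SE 0.57, edgeR adjusted p = 1.77e-06) and 4.41 at 16 weeks (SE 0.57, edgeR adjusted p = 1.54e-06). Both Cdkn3 folds rest on 25 counts in chow, at 0.0869 to 0.229 CPM. These chow values lie under the filter level of 0.241 CPM, so Cdkn3 entered the test through the CDA-HFD livers. Of the 17 genes of G1 cyclins, CDKs, RB and E2F factors, 5 were called higher and 3 lower at 8 weeks and 6 higher and 4 lower at 16 weeks (medians 0.05 and 0.09). The shares were 29.4% higher and 17.6% lower at 8 weeks, near the 30.8% and 20.5% of all genes. At 16 weeks they were 35.3% and 23.5%, where all genes gave 29.4% and 22.5%. With library totals as the scaling, 8 were higher and 0 lower at 16 weeks. Ccnd1, cyclin D1, rose by 3.26 at 8 weeks (SE 0.20, edgeR adjusted p = 3.68e-10) and 2.87 at 16 weeks (SE 0.20, edgeR adjusted p = 6.63e-10), and E2f8, a repressor of cell cycle genes, fell by 1.44 (SE 0.41, edgeR adjusted p = 0.00638) and 1.41 (SE 0.41, edgeR adjusted p = 0.00597).

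Genes of dividing cells rose in full. All 17 tested were called higher at both times, against 30.8% of all genes at 8 weeks and 29.4% at 16 weeks. Their median log2 changes were 2.27 at 8 weeks and 3.005 at 16 weeks. Cdc20, an activator of mitotic exit, rose most, by 4.41 (SE 0.39, edgeR adjusted p = 3.18e-08) and 4.51 (SE 0.40, edgeR adjusted p = 9.40e-09). Transcripts of CDK inhibitors and of mitosis were thus both higher in the same tissue, and bulk libraries do not tell whether in the same cells.

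**Figure D4:**
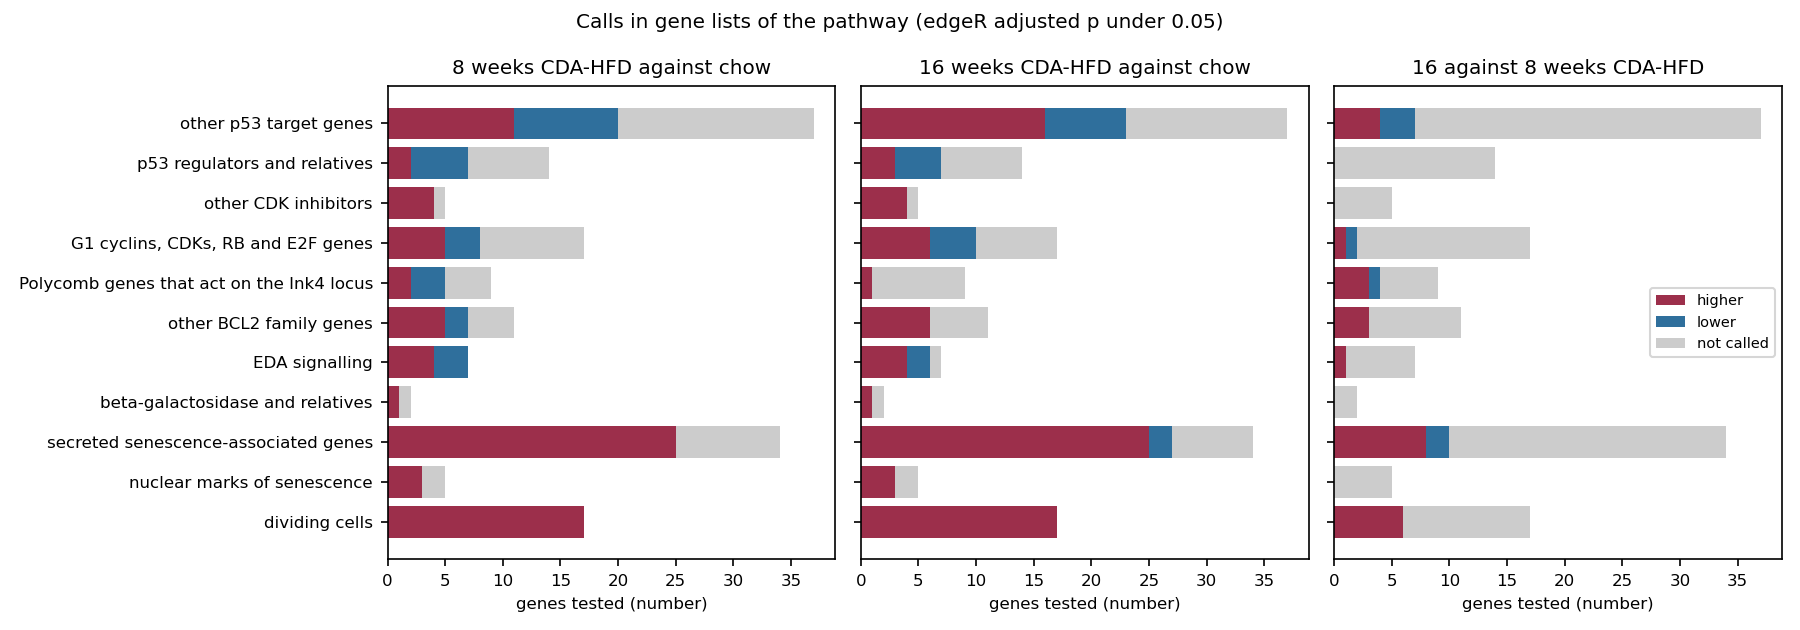
Numbers of genes called higher, called lower and not called (edgeR adjusted p under 0.05) in 11 lists of the pathway, for 8 weeks of CDA-HFD against chow, 16 weeks against chow, and 16 against 8 weeks. All 17 genes of dividing cells and 25 of 34 secreted genes were higher at both times, while the 37 other p53 targets split in both directions. Over all genes, 30.8% were called higher at 8 weeks and 29.4% at 16 weeks.

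Secreted genes linked to senescence were largely higher as well. Of 34 tested, 25 were called higher and 0 lower at 8 weeks (median 2.16), and 25 higher and 2 lower at 16 weeks (median 2.26). That is 73.5% called higher at both times, against 30.8% and 29.4% of all genes. Mmp12, a macrophage elastase, rose by 9.65 at 8 weeks (SE 0.45, edgeR adjusted p = 1.62e-11) and 10.39 at 16 weeks (SE 0.46, edgeR adjusted p = 3.04e-12), while Vegfa, the vascular growth factor, fell by 0.64 at 16 weeks (SE 0.21, edgeR adjusted p = 0.0160). Macrophages also express many of these genes, and the macrophage sums given above moved with the same groups. Between the diet times 8 were called higher and 2 lower at 16 weeks (23.5% and 5.88%, against 10.6% and 11% of all genes). Without 8-week library 3 these counts were 12 and 4. With library totals as the scaling they were 15 and 0, where 94.8% of all calls in this comparison were higher. Spp1, osteopontin, which is also 1 of the bile duct markers, rose by 2.16 (SE 0.34, edgeR adjusted p = 0.000257), and Il1b fell by 0.69 (SE 0.15, edgeR adjusted p = 0.00438).

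Loss of Lmnb1 (lamin B1) and of HMGB proteins is a textbook mark of senescent nuclei. The list of nuclear marks also held Hmga1, Hmga2 and H2afy, to which that mark does not apply, so its counts cannot test such a loss. Of its 5 genes tested, none was called lower and 3 were called higher at both times. The shares were 60% higher and 0% lower, against 30.8% and 20.5% of all genes at 8 weeks and 29.4% and 22.5% at 16 weeks. Lmnb1, named here for the loss mark after its values were seen, rose by 0.65 at 8 weeks (SE 0.22, edgeR adjusted p = 0.0169) and 1.10 at 16 weeks (SE 0.22, edgeR adjusted p = 0.000250). Hmgb2 rose by 2.005 (SE 0.31, edgeR adjusted p = 2.60e-05) and 2.25 (SE 0.31, edgeR adjusted p = 3.58e-06), at group means under 1 CPM, and reads of this gene may be shared with near-identical copies.

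The BCL2 family, to which Bax belongs, had 5 of 11 tested genes called higher and 2 lower at 8 weeks (median 0.44) and 6 higher and 0 lower at 16 weeks (median 0.36). The shares were 45.5% higher and 18.2% lower at 8 weeks, against 30.8% and 20.5% of all genes. At 16 weeks they were 54.5% and 0%, against 29.4% and 22.5%. Bok, a relative of Bax, rose by 1.33 at 8 weeks (SE 0.25, edgeR adjusted p = 0.000250), Bmf, which promotes death, read -0.82 (SE 0.20, edgeR adjusted p = 0.00167), and the survival gene Bcl2 rose by 1.55 at 16 weeks (SE 0.21, edgeR adjusted p = 2.37e-06). At 16 against 8 weeks 3 were called higher and 0 lower (27.3% and 0%, against 10.6% and 11% of all genes). Bmf was higher by most, with 1.12 (SE 0.18, edgeR adjusted p = 0.000217).

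Of 7 genes of ectodysplasin signalling, in which Eda2r takes part, 4 were called higher and 3 lower at 8 weeks (median 0.91) and 4 higher and 2 lower at 16 weeks (median 1.09). The shares were 57.1% higher and 42.9% lower at 8 weeks, against 30.8% and 20.5% of all genes. At 16 weeks they were 57.1% and 28.6%, against 29.4% and 22.5%. Edar, the receptor of the A1 form, rose by 2.59 (SE 0.64, edgeR adjusted p = 0.00227) and 3.68 (SE 0.61, edgeR adjusted p = 3.49e-05), at means of 0.0321 CPM on chow, 0.190 CPM at 8 weeks and 0.431 CPM at 16 weeks. Both Edar folds rest on 5 counts in chow, at 0 to 0.0675 CPM. These chow values lie under the filter level of 0.241 CPM, so Edar entered the test through the CDA-HFD livers. Tab2, an adaptor of the TAK1 kinase, read -1.05 (SE 0.32, edgeR adjusted p = 0.00917) and -0.90 (SE 0.32, edgeR adjusted p = 0.0212).

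The Polycomb proteins silence the locus that holds Cdkn2a and Cdkn2b. Of 9 such genes tested, 2 were called higher and 3 lower at 8 weeks (median -0.27), and 1 higher and 0 lower at 16 weeks (median -0.08). The shares were 22.2% higher and 33.3% lower at 8 weeks, against 30.8% and 20.5% of all genes. At 16 weeks they were 11.1% and 0%, against 29.4% and 22.5%. At 16 weeks leaving out 8-week library 3 gave 1 higher and 3 lower, and library totals as the scaling 4 higher and 0 lower. Suz12, a core subunit, read -0.64 at 8 weeks (SE 0.22, edgeR adjusted p = 0.0198), and Ring1 rose by 0.40 (SE 0.12, edgeR adjusted p = 0.00703). Ezh2, the methyltransferase, rose by 0.64 at 16 weeks (SE 0.14, edgeR adjusted p = 0.000596). Between 16 and 8 weeks 3 were called higher and 1 lower (33.3% and 11.1%, against 10.6% and 11% of all genes). Cbx7 was higher by 0.55 (SE 0.14, edgeR adjusted p = 0.00823). Cbx8 was at -0.31 (SE 0.10, edgeR adjusted p = 0.0302), a direction that turned to 0.10 with library totals as the scaling.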

How the data were processed

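For each of the 21 libraries the authors deposited raw counts by Ensembl gene. The libraries came from a stranded total RNA kit per the labels' protocols, and the submitters' processing notes name GRCm38 as the build; for the aligner, the counting program and the strand setting, nothing is given in the sources used here. GENCODE M21 gave coordinates, and symbols for 52403 of 52636 IDs, and start regions came from RefSeq.

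A filter on low counts (filterByExpr, by group) kept 17104 genes with 99.96% of the counts. All 10 members passed. Libraries were scaled by TMM, and CPM are on that scale. One quasi-likelihood fit in edgeR 4.0.16 (R 4.3.3) over all 21 libraries gave 3 contrasts, with Benjamini-Hochberg adjustment over all genes and a threshold of 0.05; SE is the log2 change divided by the root of F. The script was tested on simulated counts. Relations used log2(CPM + 0.1) and exact permutation of pairings, adjusted over 18 relations. Alternatives used DESeq2 1.42.0, limma 3.58.1, other scalings and filters, and left-out libraries. Python 3.11.15 and matplotlib 3.10.9 drew the figures.

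Every member is named; from each list of related genes, the called gene with the largest rise and the one with the largest fall in each comparison are named; Glb1, Cdkn1b, Lmnb1, Gadd45a, Pmaip1 and Tnfrsf10b were added after their values were seen. Replicate numbers follow the listed order of samples. Members and lists were chosen with earlier results of these data known.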

Additional observations from a re-analysis of the deposited data

Results flagged for a closer look

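Of 141 groups of values searched, 19 held a library far from the rest by Dixon's ratio; chance alone marks about 5% of groups. Library 3 at 8 weeks accounts for 9: it was the lowest of its group for Trp53 (20.8 CPM), Mdm2 (12.03 CPM), Suz12 (7.44 CPM), Lmnb1 (2.71 CPM) and Pmaip1 (1.11 CPM) and the highest for Cdkn2a (2.99 CPM), Dcxr (678 CPM), Glb1 (64.1 CPM) and Glb1l (6.81 CPM). Library 2 at 16 weeks was the highest for Cdkn2b (1.68 CPM), Cdkn3 (6.83 CPM) and Cdc20 (39.1 CPM), and library 8 at 16 weeks for Trp53inp1 (140.4 CPM) and Bcl2 (10.8 CPM). Library 1 at 16 weeks was the highest for Glb1l2 (1.10 CPM) and library 5 at 16 weeks for E2f8 (10.6 CPM). Among chow livers, library 5 was the highest for Ccng1 (59.9 CPM), library 2 the highest for Cdkn2a (0.172 CPM, 6 counts) and library 3 the lowest for Hipk2 (43.3 CPM).

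Of the named genes, 16 were called by the test of 16 against 8 weeks, where 21.6% of all genes tested were called. Several of them were named for having the largest called rise or fall of their list in this comparison, so the number depends on the naming. Time on the diet and age cannot be told apart in it. The log2 change was negative for Cdkn2a (-1.08), Dcxr (-1.69), Ccnd3 (-0.37), Cbx8 (-0.31) and Il1b (-0.69). It was positive for Ddit4l (1.82), Spp1 (2.16), Bmf (1.12), Tnfrsf19 (0.96), Tnfrsf10b (0.90), Top2a (0.92), Bcl2 (0.91), Mmp12 (0.75), Ccnd2 (0.59), Cbx7 (0.55) and Ezh2 (0.36). Over the alternatives, Ddit4l, Spp1, Bmf, Tnfrsf19, Bcl2, Ccnd2 and Cbx7 were called in 31 of 31 and Cdkn2a in 8 of 30.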

How the results depend on the processing

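Over 31 alternative settings, the counts of members called against chow stayed within 1.5 times the main counts of 4 at 8 weeks and 7 at 16 weeks, with no member called lower. Trp53, Cdkn2a, Bax and Phlda3 at both times, and Cdkn2b and Eda2r at 16 weeks, were called in every alternative that gave a value; a mean of at least 1 CPM as the filter gives none for Cdkn2a, Cdkn2b and Glb1l2. Members called between 16 and 8 weeks (main 1) numbered 0 with DESeq2 size factors, 4 with total counts alone, 0 with no filter, 0 with a mean of at least 1 CPM, 2 with the DESeq2 Wald test, 4 with limma voom, 0 without 8-week replicates 3, 4 and 5, 2 without the 5 libraries with most squamous transcripts, 0 without 8-week replicate 3 and chow replicate 5 (chosen after seeing the data), and 0 to 4 with single libraries left out; 4 members had an unadjusted p under 0.05 in the main fit. All genes called between 16 and 8 weeks (main 3703) numbered 2226 with only these 2 groups in the fit, 5579 without the 5 squamous libraries and 2248 to 5132 with single libraries left out. Relations to Cdkn1a past the threshold (main 3) numbered 1 to 5 with single libraries left out. Total counts alone turned the log2 change of Ccnd3 to 0.21 and of Cbx8 to 0.50 at 16 weeks against chow, and, for 16 against 8 weeks, of Ccnd3 to 0.072, of Cbx8 to 0.10, of Bok to 0.49 and of Glb1 to 0.45; limma voom gave 0.41 for Bok, and leaving out the 5 squamous libraries 0.31 for Glb1. The causes were not tested. Low counts limit Cdkn2a (12 counts in 5 chow libraries), Cdkn2b (43) and Glb1l2 (62). No paired analysis was possible because the labels give no replicate numbers shared between groups.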
